A study of Mus musculus with 24 samples.

Results

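Expression of 9 genes of IL-6, oncostatin M and LIF signalling was followed in satellite cells and endothelial cells sorted from injured and uninjured mouse muscle. The members were the ligand genes Il6, Osm and Lif, the receptor genes Il6ra, Il6st, Osmr and Lifr, the transcription factor gene Stat3 and the feedback inhibitor gene Socs3. They were found by the gene symbol annotated to each probe set, the group of probes that reads 1 gene. Each symbol had 1 probe set, so the members are 9 of the 23279 symbols named on the array. A filter on dim probe sets, which required a value above the array's median on at least 3 of the 24 arrays, left 14064 genes for testing. It kept 8 of the 9 members and removed Lif.

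Tibialis anterior muscle was injured with cardiotoxin, a snake venom toxin that lyses muscle fibres, and cells were sorted by flow cytometry on days 2, 4 and 8, or on day 0 from uninjured muscle. The gate for satellite cells, which are muscle stem cells, was CD45-Sca1-CD34+/loCD31-alpha7integrin+. The gate for endothelial cells, which line the vessels, was CD45-Sca1+CD34+CD31+. The 8 groups of cell type and day hold 3 arrays each, labelled as biological replicates. All groups share the muscle and the sorting scheme, and no transgene or knockout is named in the sample titles. Groups were taken from the sample titles, from which the separate cell type field differs in 12 of the 24 samples and the time point field in 18. The strain, sex and age of the mice are not given in the sources used here.

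IL-6 family cytokines signal through receptors that share the subunit gp130, the product of Il6st. IL-6 first binds its alpha receptor, encoded by Il6ra, whereas oncostatin M and LIF bind receptors built from gp130 with the products of Osmr and Lifr. Janus kinases attached to these receptors phosphorylate STAT3, which enters the nucleus and switches on target genes, among them Socs3, whose product binds gp130 and shuts the signal off. In regenerating muscle IL-6 and LIF are known to act on myoblasts, and oncostatin M has been described in mice as a signal that keeps satellite cells quiescent.

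The promoters of Il6 and Socs3 are shown because the first gene carried the largest differences of the family and the second is the textbook STAT3 target. Sequences are those of RefSeq on GRCm38.p6, running from 250 bases before to 50 bases after the gene's start, and 8 of the 9 members had such a window. Capitals mark a match, on either strand, to the STAT motif TTCNNNGAA, to the AP-1 motif TGANTCA or to the NF-kB motif GGGNNNTTCC. No match overlapped another.
Il6 (chr5:30012864-30013163, + strand): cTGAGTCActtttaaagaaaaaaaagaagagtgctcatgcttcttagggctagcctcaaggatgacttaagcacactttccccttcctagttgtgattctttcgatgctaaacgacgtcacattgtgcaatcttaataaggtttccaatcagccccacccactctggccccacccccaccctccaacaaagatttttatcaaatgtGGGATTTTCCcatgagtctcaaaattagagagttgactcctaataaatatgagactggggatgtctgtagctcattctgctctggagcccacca
Socs3 (chr11:117969317-117969616, - strand): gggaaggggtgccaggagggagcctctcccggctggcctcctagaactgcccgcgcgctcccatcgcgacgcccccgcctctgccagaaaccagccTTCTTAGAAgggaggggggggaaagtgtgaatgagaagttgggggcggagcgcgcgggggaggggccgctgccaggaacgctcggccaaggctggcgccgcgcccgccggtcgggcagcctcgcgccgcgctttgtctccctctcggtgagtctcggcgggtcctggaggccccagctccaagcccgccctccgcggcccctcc
In the Il6 window TGAGTCA began at base -249 and GGGATTTTCC at base -44 relative to the gene's start. In the Socs3 window TTCTTAGAA began at base -154. Among all 32851 windows of 300 bases, 8.3% held the STAT motif, 7.81% the AP-1 motif and 5.56% the NF-kB motif. Among the 8 members with a window, the STAT motif was found in 1 (Socs3), the AP-1 motif in 3 (Il6, Lif and Osmr) and the NF-kB motif in 1 (Il6). These matches describe letters and were not tested as binding sites. In the reference gene table Osm is the neighbour of Lif on chromosome 11, and Osmr the neighbour of Lifr on chromosome 15.

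Values are the authors' log2 RMA levels, and array medians lay between 4.11 and 4.40, which serves as a guide to background. Arrays of one group correlated at 0.931 to 0.976 over all probe sets, against 0.834 to 0.974 for arrays of different groups. The sorted cells carried the transcripts of their types, and satellite cells also those of pericyte and smooth muscle markers. The mean of 14 such markers was 9.91, 7.21, 7.29 and 8.93 in satellite cells on days 0, 2, 4 and 8. In endothelial cells the same mean was 7.53, 6.31, 6.25 and 6.32. Its part in the satellite cell values of members and other genes below was not tested. All 14 endothelial markers were lower in satellite cells on each of the 4 days, and 11, 4, 9 and 11 of 12 satellite cell markers were higher in them on days 0, 2, 4 and 8. On day 2, 10 of these 12 satellite cell markers had fallen in satellite cells relative to day 0. Both sorts excluded CD45, yet Ptprc, the gene of CD45, stood at 9.82, 8.01 and 9.67 in the satellite cells of day 2, against 3.13, 2.97 and 2.81 in those of day 0. All 19 macrophage and leukocyte markers rose in the same comparison, with a median difference of 5.58, as did all 9 tested neutrophil markers, with a median of 4.97. The mean level of the 19 leukocyte markers was 10.30, 8.55 and 10.15 on the 3 satellite arrays of day 2, against 3.83 to 4.46 on those of day 0. It lay at 7.02 to 8.24 on day 4 and 5.40 to 6.81 on day 8. In endothelial cells it lay at 4.16 to 4.29 on day 0, 5.48 to 7.82 on day 2, 6.27 to 8.23 on day 4 and 4.96 to 5.91 on day 8. Replicate 2 of the day 2 satellite cells stood apart from the other arrays of its group, with fewer leukocyte transcripts. Its mean over the 14 endothelial markers was 8.62, against 6.69 and 7.01, and over the pericyte and smooth muscle markers 8.28, against 6.58 and 6.78. The called rises of members, Apln and Aplnr in satellite cells on day 2 are given with and without this array below, as are the Osmr difference between the cell types and the Socs3 difference in response of that day.

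A gene was called where limma's moderated test gave an adjusted p under 0.05 and an absolute log2 difference of at least 1. Relative to day 0, satellite cells had 4 of the 8 tested members called on day 2, all higher, where 20.5% of all genes tested were called. They had 1 member called on day 4, where 12.0% of genes were called, and 1 on day 8 (6.38%), both higher. In endothelial cells 1 member rose and 1 fell on day 2 (6.73%), 1 rose on day 4 (5.33%) and 1 rose on day 8 (2.05%). On day 2 the 8 members had a median difference of 0.74 in satellite cells and of 0.14 in endothelial cells, beside -0.03 and -0.01 over all genes tested. Between successive later days, 2 members fell in satellite cells at day 4 relative to day 2 (10.5%) and 1 rose in endothelial cells (0.370%). At day 8 relative to day 4, limma called no member in satellite cells (1.68%) or endothelial cells (0.121%), and 0 and 3 members had an unadjusted p under 0.05. For the difference in response between the cell types, 3 members were called on day 2 (11.5%), 3 on day 4 (4.24%) and none on day 8 (2.20%), where 2 had an unadjusted p under 0.05.

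**Figure D1:**
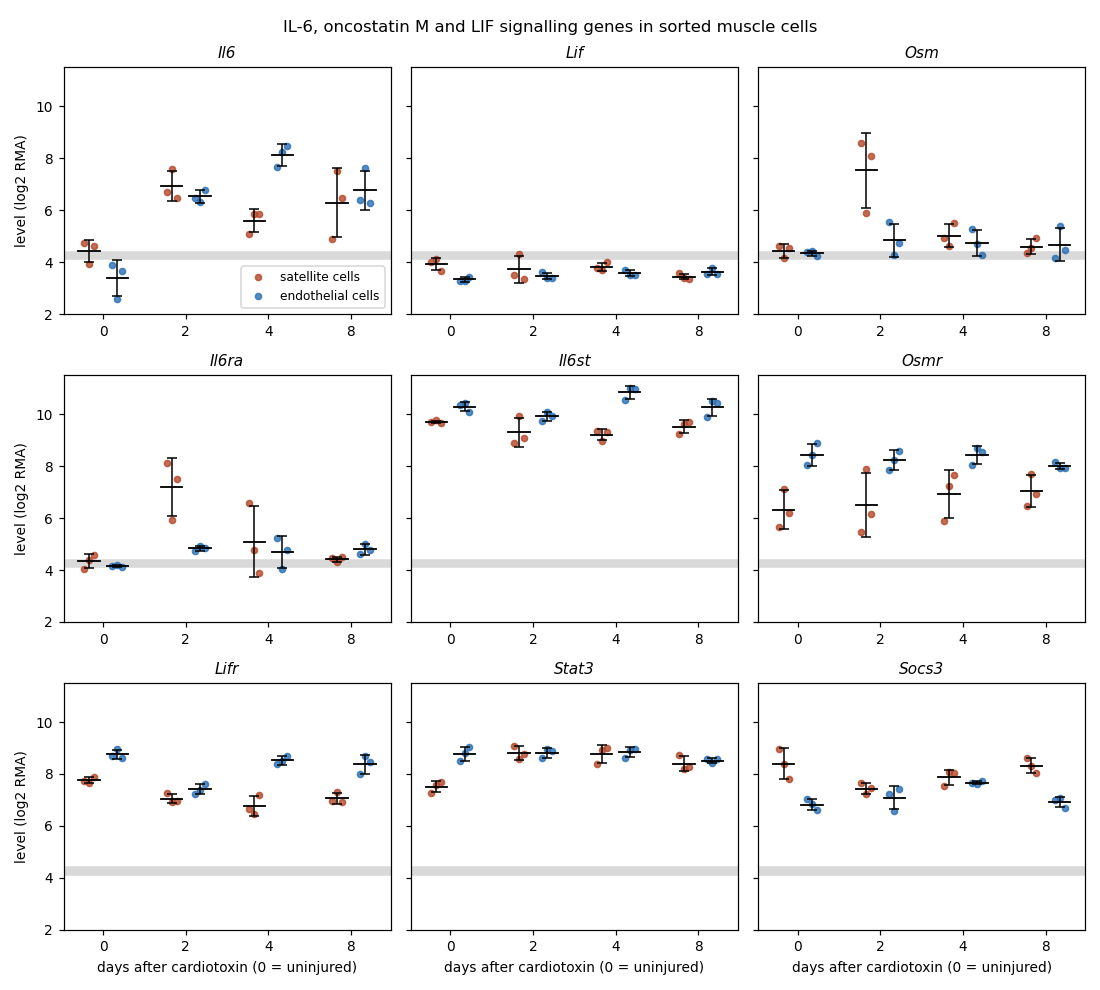
Level (log2 RMA) of each member on every array, by days after cardiotoxin, with satellite cells left of endothelial cells on each day. Points are arrays, bars are the mean ± SD of 3 arrays, and the grey band is the range of the array medians, 4.11 to 4.40. Osm and Il6ra leave the band mainly in the satellite cells of day 2, Il6 lies above it in both cell types on each day after injury, and Lif stays below 4.40 on every array.

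Il6, the gene of the cytokine IL-6, was near background in uninjured muscle and higher after injury in both cell types. Satellite cells had Il6 at 4.74, 3.94 and 4.61 on day 0, 6.71, 7.59 and 6.48 on day 2, 5.08, 5.84 and 5.85 on day 4, and 4.89, 7.51 and 6.49 on day 8. Endothelial cells had it at 3.90, 2.59 and 3.66 on day 0, 6.48, 6.32 and 6.79 on day 2, 7.65, 8.23 and 8.48 on day 4, and 6.39, 7.64 and 6.26 on day 8. Every array taken after injury lay above every day 0 array of its own cell type, and the highest mean fell on day 2 in satellite cells and on day 4 in endothelial cells. In sorted bulk populations more transcript per cell and more cells that carry it cannot be told apart, here and for each gene below.

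Relative to day 0, Il6 rose in satellite cells by 2.50 (SE 0.51, limma adjusted p = 0.000777) on day 2 and by 1.87 (SE 0.51, adjusted p = 0.0236) on day 8. On day 4 the difference was 1.16 with an adjusted p of 0.133. In endothelial cells Il6 rose by 3.15 (SE 0.51, adjusted p = 0.000515) on day 2, by 4.73 (adjusted p = 6.6e-06) on day 4 and by 3.38 (adjusted p = 0.000613) on day 8. It was the only member called on all 3 days in a cell type. No fold is given, since the day 0 levels lie near background and a difference from them can understate the rise. Without day 2 replicate 2 the day 2 rise of satellite cells was 2.17 (adjusted p = 0.00538). The rise of satellite cells on day 8 was lost in 4 of the 35 alternative analyses, among them the one without day 8 replicate 2, where it was 1.26 with an adjusted p of 0.15.

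On days 2 and 8 the satellite array with the most endothelial transcripts also had the most Il6. On days 0 and 4 the array with the most such transcripts had the least Il6. On day 2 the mean of the 14 endothelial markers was 6.69, 8.62 and 7.01 on the 3 satellite arrays, against 6.15 to 6.27 on day 0, and the array with the highest mean also had the most Il6, 7.59. On day 8 the marker mean was 6.81, 7.96 and 7.62 while Il6 was 4.89, 7.51 and 6.49, so that the arrays had the same order in both. Leukocyte means on the day 2 arrays ran the other way, with the lowest, 8.55, on the array with the most Il6. The endothelial marker mean on day 4 was 7.55, 6.86 and 6.89 while Il6 was 5.08, 5.84 and 5.85. Fibro-adipogenic progenitor marker means had the order of Il6 on day 4 (6.08, 6.24 and 6.42) and day 8 (6.45, 6.89 and 6.67). On days 0 and 2 they did not. Pericyte and smooth muscle marker means had the order of Il6 on day 8 (8.50, 9.33 and 8.95). On day 2 (6.58, 8.28 and 6.78) only the highest array was the same, and on day 4 (7.15, 7.37 and 7.35) only the lowest. On day 0 (9.43, 10.15 and 10.14) the order was the opposite. The part of other sorted cells in the Il6 values of satellite cells was not tested.

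Satellite cells held less Il6 than endothelial cells on day 4, at 5.59 ± 0.44 in satellite cells and 8.12 ± 0.42 in endothelial cells (mean ± SD, n = 3 each). The difference was -2.53 (SE 0.51, limma adjusted p = 0.00109), which is 5.76-fold. On days 0, 2 and 8 the cell types differed by 1.05, 0.40 and -0.47, with adjusted p-values of 0.161, 0.699 and 0.604. The response to injury on day 4 was smaller in satellite cells than in endothelial cells by 3.57 (SE 0.72, adjusted p = 0.00485). Both endothelial groups of days 2 and 4 also held leukocyte transcripts, with 8 and 13 of the 19 markers higher than on day 0, and 3 of 19 on day 8. On the endothelial arrays of day 4 the leukocyte mean was 8.23, 7.04 and 6.27 while Il6 was 7.65, 8.23 and 8.48, in the opposite order. On those of day 2 it was 7.82, 5.48 and 6.82 while Il6 was 6.48, 6.32 and 6.79, and the array with the fewest leukocyte transcripts had the least Il6. The part of leukocyte transcripts in the endothelial Il6 values was not tested. Fibro-adipogenic progenitor markers, of which 10 were tested, were higher in endothelial cells for 2 genes on day 4 and 3 on day 8, and their part in the Il6 values was not tested.

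Ordered by mean level, Il6 was highest in the endothelial cells of day 4, whose arrays lay above those of every other group. The satellite cells of day 2, the endothelial cells of days 8 and 2 and the satellite cells of days 8 and 4 followed, each overlapping the next. The day 0 groups came last, satellite cells above endothelial cells without overlap.

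Osm, the gene of oncostatin M, was high in 1 group only. Its levels in satellite cells were 4.64, 4.14 and 4.54 on day 0, 8.61, 5.89 and 8.10 on day 2, 4.93, 4.62 and 5.51 on day 4, and 4.34, 4.53 and 4.93 on day 8. In endothelial cells all 12 arrays lay between 4.17 and 5.53. All 3 satellite arrays of day 2 lay above the other 21 arrays, and replicate 2 was the lowest of the 3.

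In satellite cells Osm rose by 3.09 on day 2 relative to day 0 (SE 0.49, limma adjusted p = 6.16e-05). At day 4 relative to day 2 it fell by 2.51 (SE 0.49, adjusted p = 0.00127). Its differences from day 0 were 0.58 on day 4 and 0.16 on day 8, with adjusted p-values of 0.497 and 0.892. In endothelial cells the differences from day 0 were 0.51, 0.41 and 0.33 on days 2, 4 and 8, with adjusted p-values of 0.634 to 0.857. On day 2 satellite cells held more Osm than endothelial cells by 2.69 (SE 0.49, adjusted p = 0.000675). With the compared groups alone, the fall at day 4 relative to day 2 and the day 2 difference between the cell types were not called (adjusted p = 0.076 and 0.0651), and both were called in the other 33 of 34 alternatives. The day 2 response was larger in satellite cells by 2.59 (SE 0.70, adjusted p = 0.0187), a call lost in 4 of 34 alternatives. These include the fit of the compared groups alone (adjusted p = 0.0626) and the fits without satellite day 2 replicate 1 (2.05, adjusted p = 0.0639) or replicate 3 (2.30, adjusted p = 0.0594) and without endothelial day 2 replicate 2 (2.31, adjusted p = 0.0566).

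On the day 2 satellite arrays Osm had the same order as the leukocyte marker means. The 2 satellite arrays of day 2 with Osm at 8.61 and 8.10 had leukocyte means of 10.30 and 10.15 and neutrophil marker means of 9.07 and 8.37. The array with Osm at 5.89 had 8.55 and 7.43. Across all other groups the neutrophil mean lay between 2.94 and 5.70. On the day 4 satellite arrays Osm was 4.93, 4.62 and 5.51 beside leukocyte means of 8.24, 7.56 and 7.02, in a different order. The orders also differed in the satellite cells of day 8 and the endothelial cells of days 0 and 8. They were the same in the satellite cells of day 0 and the endothelial cells of days 2 and 4. Without day 2 replicate 2 the rise of Osm in satellite cells was 3.92, and without replicate 1 it was 2.56. The share of the rise that other sorted cells contribute was not tested.

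**Figure D2:**
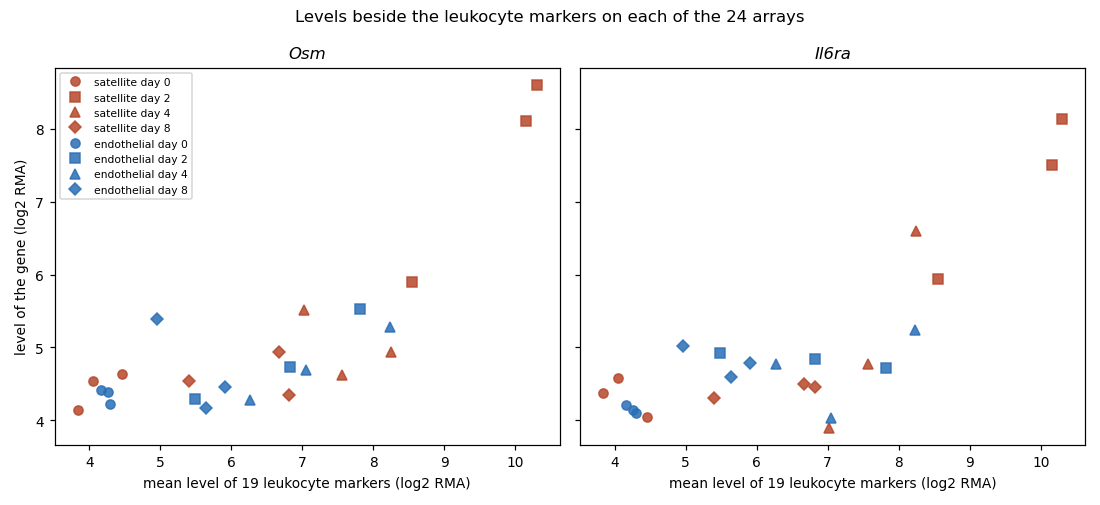
Level (log2 RMA) of Osm (left) and Il6ra (right) on each of the 24 arrays against the mean level of 19 macrophage and leukocyte markers on the same array. Each point is 1 array, with colour for the cell type and shape for the day. The 3 satellite arrays of day 2 have the highest marker means, 8.55 to 10.30, and the highest Osm levels, 5.89 to 8.61.

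Lif, the gene of leukaemia inhibitory factor, stayed at background. Its levels ran between 3.28 and 4.32 over the 24 arrays and lay above the array's median on 0 of them, so it was not tested. Its group means spanned 0.59, with the highest at 3.92 ± 0.23 in the satellite cells of day 0 and the lowest at 3.34 ± 0.09 in the endothelial cells of day 0 (SD, n = 3 each). Each group's arrays overlapped those of the next in that order.

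Il6ra, the gene of the IL-6 receptor alpha chain, followed the course of Osm. It stood in satellite cells at 4.04, 4.38 and 4.58 on day 0, 8.13, 5.94 and 7.51 on day 2, 6.60, 4.78 and 3.90 on day 4, and 4.45, 4.31 and 4.50 on day 8. Endothelial arrays lay between 4.10 and 4.21 on day 0 and between 4.02 and 5.24 after injury. The satellite arrays of day 2 lay above all others except replicate 1 of day 4, which at 6.60 exceeded replicate 2 of day 2.

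Il6ra rose in satellite cells by 2.86 on day 2 relative to day 0 (SE 0.50, limma adjusted p = 0.000179). It fell by 2.10 on day 4 relative to day 2 (SE 0.50, adjusted p = 0.0066), a call that was lost in 3 of 35 alternatives. One of these left out day 4 replicate 3, which gave -1.51 with an adjusted p of 0.0611. On day 2 satellite cells held more Il6ra than endothelial cells by 2.37 (SE 0.50, adjusted p = 0.00234). The difference in response on day 2, 2.19 (SE 0.71), had an adjusted p of 0.0503 and was called in 12 of 35 alternatives. On each of days 2 and 4 the satellite array with the highest leukocyte mean, replicate 1 at 10.30 and 8.24, was also the one with the most Il6ra. Without day 2 replicate 2 the rise on day 2 was 3.49, and without replicate 1 it was 2.39.

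Il6st, which encodes the shared subunit gp130, was well above background on every array and had no called change with injury. Satellite arrays gave 9.69, 9.76 and 9.66 on day 0, 8.90, 9.93 and 9.07 on day 2, 9.36, 8.97 and 9.32 on day 4, and 9.24, 9.60 and 9.71 on day 8. Endothelial arrays gave 10.34, 10.44 and 10.09 on day 0, 9.74, 10.07 and 9.93 on day 2, 10.55, 10.99 and 10.98 on day 4, and 9.88, 10.49 and 10.43 on day 8. Satellite arrays lay below endothelial arrays on days 0, 4 and 8, and on day 2 only replicate 2, the array with the most endothelial transcripts of its group, overlapped them.

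No difference of Il6st from day 0 was called, and these differences ran between -0.48 and 0.55. On day 4 satellite cells held less Il6st than endothelial cells by 1.62 on the log2 scale, a 3.08-fold difference (SE 0.24, limma adjusted p = 5.66e-05). On day 8 the difference of -0.75 had an adjusted p of 0.036 and was under the minimum of 1, and on days 0 and 2 the adjusted p-values were 0.093 and 0.104.

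Osmr, which encodes the oncostatin M receptor subunit, separated the cell types and showed no called change between days. Levels in satellite cells were 5.65, 7.12 and 6.19 on day 0, 5.48, 7.89 and 6.16 on day 2, 5.87, 7.23 and 7.67 on day 4, and 6.48, 7.69 and 6.95 on day 8. Levels in endothelial cells were 8.03, 8.41 and 8.88 on day 0, 7.86, 8.26 and 8.60 on day 2, 8.06, 8.68 and 8.55 on day 4, and 8.16, 7.94 and 7.92 on day 8. Of the satellite arrays, day 2 replicate 2 alone reached the endothelial range of its own day. Pericyte and smooth muscle marker means had the order of Osmr on the satellite arrays of days 0 (9.43, 10.15 and 10.14), 2 (6.58, 8.28 and 6.78) and 8 (8.50, 9.33 and 8.95). On day 4 (7.15, 7.37 and 7.35) they did not. Endothelial marker means had the order of Osmr on days 2 and 8 and not on days 0 and 4. The part of other sorted cells in the Osmr values of satellite cells was not tested.

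Satellite cells held less Osmr than endothelial cells on day 0 by 2.12 on the log2 scale, or 4.35-fold (SE 0.51, limma adjusted p = 0.00386). The difference was -1.73 on day 2 (adjusted p = 0.0245) and -1.50 on day 4 (adjusted p = 0.0471), and on day 8 it was -0.97 with an adjusted p of 0.217. The call of day 2 was lost in 5 of 35 alternatives, with -1.21 and an adjusted p of 0.169 without satellite day 2 replicate 1. The call of day 4 was lost in 19, with adjusted p-values up to 0.256. Without satellite day 4 replicate 1, the lowest of its group, the difference was -0.98. Without satellite day 2 replicate 2, the highest of its group, the day 2 difference was -2.42 (adjusted p = 0.000747). No difference of Osmr from day 0 was called in either cell type, and the smallest adjusted p among the 6 was 0.451.

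Lifr, which encodes the LIF receptor subunit, was lower in satellite cells and fell in endothelial cells on day 2. Its satellite cell levels were 7.72, 7.67 and 7.89 on day 0, 7.25, 6.92 and 6.97 on day 2, 6.66, 6.46 and 7.20 on day 4, and 6.95, 7.31 and 6.92 on day 8. Its endothelial levels were 8.70, 8.96 and 8.63 on day 0, 7.23, 7.39 and 7.62 on day 2, 8.37, 8.50 and 8.69 on day 4, and 7.98, 8.70 and 8.46 on day 8. All 3 endothelial arrays of day 2 lay below the other 9 of that cell type, and every satellite array after injury lay below those of day 0.

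In endothelial cells Lifr fell by 1.35 on day 2 relative to day 0, a 2.55-fold difference (SE 0.22, limma adjusted p = 0.000515). It rose by 1.11 on day 4 relative to day 2 (SE 0.22, adjusted p = 0.0192), a call lost in 5 of 35 alternatives with adjusted p-values up to 0.143. In satellite cells the differences from day 0 were -0.71, -0.98 and -0.70 on days 2, 4 and 8, with adjusted p-values of 0.0183, 0.00315 and 0.0511, and each was under the minimum of 1. Satellite cells held less Lifr than endothelial cells by 1.01 on day 0 (adjusted p = 0.0016, under the minimum in 4 of 35 alternatives), by 1.75 on day 4 (adjusted p = 7.69e-06) and by 1.32 on day 8 (adjusted p = 0.000165), on the log2 scale. On day 2 the difference was -0.37 with an adjusted p of 0.316.

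Between the cell types, 4 of the 8 tested members were called on day 0, where 17.0% of all genes were called, with Socs3 higher and Osmr, Lifr and Stat3 lower in satellite cells. On day 2 (12.1%) Osm and Il6ra were higher and Osmr lower, on day 4 (12.9%) Il6, Il6st, Osmr and Lifr were lower, and on day 8 (13.9%) Socs3 was higher and Lifr lower.

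**Figure D3:**
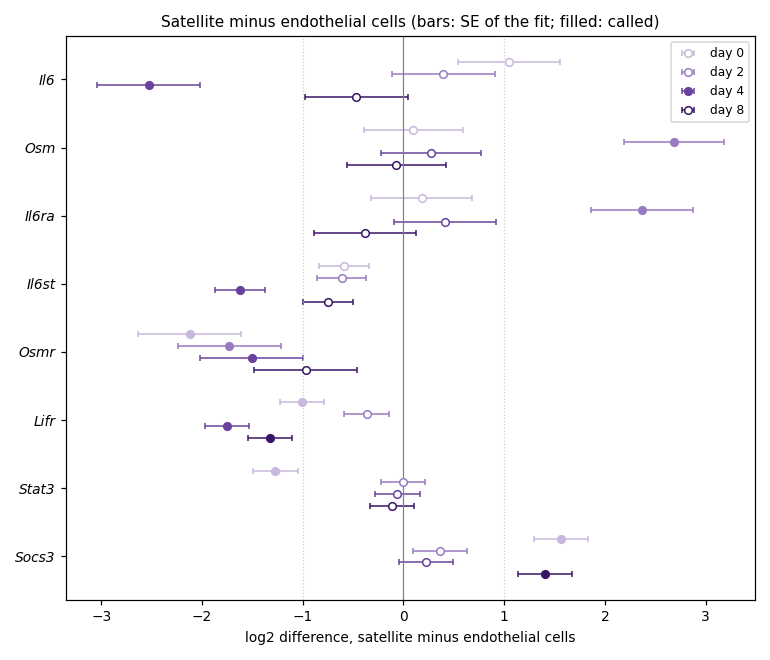
Satellite minus endothelial difference (log2) of the 8 tested members on days 0, 2, 4 and 8, so that points left of 0 are lower in satellite cells. Bars are the SE of the fit over 24 arrays, filled points are called, and dotted lines mark a difference of 1 in each direction. Il6 on day 4 lies at -2.53, Osm and Il6ra on day 2 lie at 2.69 and 2.37, and Lifr lies left of 0 on all 4 days.

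Stat3, the gene of the transcription factor that carries the signal to the nucleus, rose in satellite cells and was not called in endothelial cells. In satellite cells its levels were 7.27, 7.59 and 7.67 on day 0, 9.09, 8.56 and 8.76 on day 2, 8.38, 8.93 and 9.01 on day 4, and 8.75, 8.17 and 8.29 on day 8. All 12 endothelial arrays lay between 8.41 and 9.05. The satellite arrays of day 0 were the lowest 3 of the 24, and those after injury reached into the endothelial range or near it.

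Relative to day 0, Stat3 rose in satellite cells by 1.29 on day 2, or 2.45-fold (SE 0.22, limma adjusted p = 0.000129), and by 1.26 on day 4, or 2.39-fold (adjusted p = 0.000362). On day 8 the difference was 0.89 with an adjusted p of 0.0122, which is under the minimum of 1. In endothelial cells the differences were 0.02, 0.05 and -0.27, with adjusted p-values of 0.67 to 0.975. Satellite cells held less Stat3 than endothelial cells on day 0 by 1.27 on the log2 scale, or 2.41-fold (adjusted p = 0.00016). After injury the cell types differed by -0.0034 to -0.11, with adjusted p-values of 0.802 to 0.995. The response was larger in satellite cells by 1.27 on day 2 (SE 0.31, adjusted p = 0.0106), by 1.21 on day 4 (adjusted p = 0.0285) and by 1.16 on day 8, where the adjusted p was 0.054. The call of day 4 was lost in 7 of 35 alternatives, with adjusted p-values up to 0.0786. On the day 2 satellite arrays Stat3 was 9.09, 8.56 and 8.76 beside leukocyte means of 10.30, 8.55 and 10.15, the same order in both. On the day 4 satellite arrays Stat3 was 8.38, 8.93 and 9.01 beside leukocyte means of 8.24, 7.56 and 7.02, in the opposite order. On those of day 8 it was 8.75, 8.17 and 8.29 beside leukocyte means of 6.81, 5.40 and 6.67, again the same order in both. The part of leukocyte transcripts in the Stat3 values was not tested. Without day 2 replicate 2 the day 2 rise was 1.41 (adjusted p = 0.000128).

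Socs3, the feedback inhibitor, was higher in resting satellite cells than in resting endothelial cells. In satellite cells its levels were 8.98, 8.39 and 7.79 on day 0, 7.63, 7.23 and 7.44 on day 2, 7.54, 8.06 and 8.03 on day 4, and 8.62, 8.29 and 8.04 on day 8. In endothelial cells they were 7.02, 6.83 and 6.62 on day 0, 7.24, 6.57 and 7.41 on day 2, 7.66, 7.59 and 7.71 on day 4, and 6.99, 7.06 and 6.70 on day 8. The cell types did not overlap on days 0 and 8 and overlapped on days 2 and 4.

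Satellite cells held more Socs3 than endothelial cells by 1.56 on day 0, or 2.96-fold (SE 0.27, limma adjusted p = 0.000137), and by 1.40 on day 8, or 2.65-fold (adjusted p = 0.000641). No difference from day 0 was called. The nearest were -0.95 in satellite cells on day 2 (adjusted p = 0.0102, under the minimum of 1) and 0.83 in endothelial cells on day 4 (adjusted p = 0.0689). The response was lower in satellite cells by 1.20 on day 2 (SE 0.38, adjusted p = 0.0424) and by 1.34 on day 4 (adjusted p = 0.0476). These calls lay close to the threshold and were lost in 17 and 23 of 35 alternatives, with adjusted p-values up to 0.116 and 0.125. Without satellite day 2 replicate 2 the day 2 difference was -1.10 with an adjusted p of 0.0687. Of the 14 immediate early genes, which are known to respond to the stress of cell isolation, 2 rose and 3 fell in satellite cells on day 2 and 5 fell on day 4. In endothelial cells 1 rose on each of these days. The mean over these genes was 10.12, 9.89, 9.47 and 9.75 in satellite cells on days 0, 2, 4 and 8. In endothelial cells this mean was 9.35, 9.19, 9.23 and 9.12. The part of such a response in the Socs3 values, and in their difference between the cell types, was not tested.

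**Figure D4:**
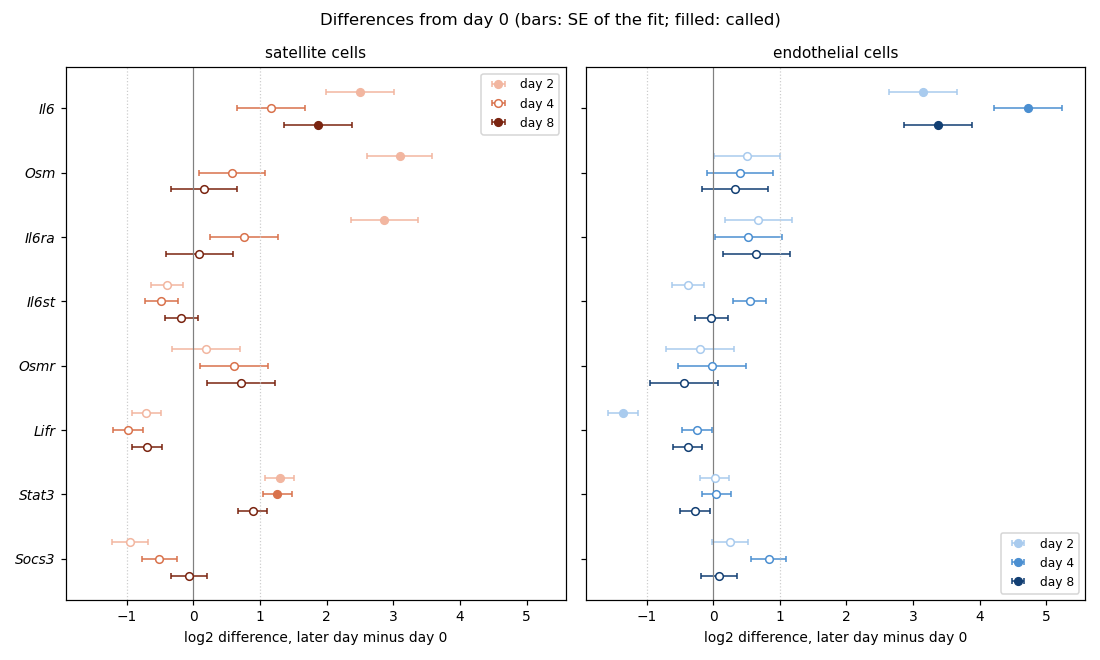
Later day minus day 0 difference (log2) of the 8 tested members in satellite cells (left) and endothelial cells (right), with days 2, 4 and 8 from light to dark. Bars are the SE of the fit, filled points are called, and dotted lines mark a difference of 1 in each direction. In satellite cells Il6, Osm, Il6ra and Stat3 are filled on day 2 at 1.29 to 3.09, and in endothelial cells Il6 is filled on all 3 days at 3.15 to 4.73.

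Other genes of the pathway were taken from lists of ligands, receptors, transducers, inhibitors and STAT3-responsive genes. Of 5 tested further ligand and partner genes, satellite cells on day 2 had 1 higher and 1 lower. Ebi3, a subunit of IL-27 and IL-35, rose by 1.87 (SE 0.38, limma adjusted p = 0.000845), and Clcf1, a cytokine that signals through the CNTF receptor, fell by 2.60 (SE 0.55, adjusted p = 0.0011). None of the 5 was called by limma against day 0 on another day or in endothelial cells, where at most 2 had an unadjusted p under 0.05. Cntfr, the gene of the CNTF receptor alpha chain, was 1 of 2 further receptor genes tested and fell in satellite cells by 1.19 on day 2, 1.19 on day 4 and 1.30 on day 8.

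Of 11 transducer genes tested, 4 rose and 1 fell in satellite cells on day 2, where 10.9% of all genes rose and 9.67% fell. Stat2, which acts in interferon signalling, rose by 1.65, Jak3, a kinase of lymphoid and myeloid cells, by 1.60, and Jak2 by 1.46. Gab1, an adaptor that links gp130 to other kinase cascades, fell by 2.03 on day 2, by 1.98 on day 4 and by 1.12 on day 8. In endothelial cells limma called none of the 11 against day 0, and 2, 2 and 1 had an unadjusted p under 0.05 on days 2, 4 and 8. Of 12 inhibitor genes, 3 rose in satellite cells on day 2, namely the phosphatase genes Ptpn6 (3.31, SE 0.54, adjusted p = 7.87e-05), Ptpn1 (1.49) and Ptpn2 (1.13). Ptpn6 encodes SHP-1, a phosphatase known from blood cells, and it moved in the group that also held leukocyte transcripts. In endothelial cells the inhibitor Socs1 fell by 1.73 on day 2 (adjusted p = 0.00227) and by 1.35 on day 8 (adjusted p = 0.0328), and Socs4 fell by 1.21 on day 2. Pias1, an inhibitor of STAT proteins, fell in satellite cells by 1.15 on day 4.

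Of 25 tested STAT3-responsive genes, 11 rose and 3 fell in satellite cells on day 2, with a median difference of 1.04 beside -0.03 over all genes tested. Hp, the gene of the acute-phase protein haptoglobin, rose by 5.17 (SE 0.38, limma adjusted p = 3.51e-09), Timp1, a metalloproteinase inhibitor, by 4.27 and Il4ra, a receptor of IL-4, by 3.33. Hp differed from day 0 by 0.18 on day 4 and -0.31 on day 8, neither called. The neutrophil marker mean of satellite cells was 8.29 on day 2, then 3.63 on day 4 and 3.10 on day 8. Its part in the Hp values was not tested. Steap4, a metalloreductase gene, fell by 2.88 and Cebpd, the gene of a transcription factor of the acute-phase response, by 2.47. On day 4 there were 5 rises and 3 falls in satellite cells (6.53% and 5.47% of all genes), and on day 8 there were 4 rises and 1 fall (4.38% and 2.00%), with Timp1 at 4.88 and 3.62 above day 0.

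In endothelial cells 6 STAT3-responsive genes rose and 3 fell on day 2, where 3.73% of all genes rose and 3.01% fell. On day 4 there were 5 rises and 2 falls (3.11% and 2.22%), and on day 8 there were 3 rises and 1 fall (1.11% and 0.946%). Myc, a growth-promoting transcription factor gene, rose by 3.76 on day 2, or 13.6-fold (SE 0.30, limma adjusted p = 1.59e-07), by 3.43 on day 4 and by 2.34 on day 8. In satellite cells the differences of Myc were -0.36, 0.44 and 0.34 on these days, with adjusted p-values of 0.382 to 0.568. Timp1 rose in endothelial cells by 2.71, 1.83 and 1.52, and Lrg1, an acute-phase gene with a role in vessels, by 2.37 on day 4. Cebpd fell in both cell types on each of the 3 days, by 1.05 to 1.80 in endothelial cells and by 1.32 to 2.47 in satellite cells. These lists name genes that STAT3 is known to act on among many other inputs, and the counts do not measure STAT3 activity.

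The study is known for following oncostatin M together with apelin (Apln) and periostin (Postn), secreted factors exchanged between vessel and muscle stem cells. Apln had its highest levels on day 2 in both cell types, at 7.27, 7.96 and 6.38 in satellite cells and 10.59, 9.93 and 9.88 in endothelial cells. On day 0 it stood at 3.02, 3.23 and 3.41 in satellite cells and at 6.48, 6.26 and 4.77 in endothelial cells. Apln thus peaked on the same day as Osm, but in both cell types, whereas Osm was called on day 2 in satellite cells alone.

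Apln rose in satellite cells by 3.99 on day 2 (SE 0.44, limma adjusted p = 8.16e-07), by 2.34 on day 4 and by 2.03 on day 8. In endothelial cells it rose by 4.30 on day 2, or 19.7-fold (SE 0.44, adjusted p = 3.29e-06), by 2.18 on day 4 and by 1.74 on day 8 (adjusted p = 0.0389). The last call was lost in 8 of 35 alternatives, and without endothelial day 0 replicate 3 it was 1.21. Satellite cells held less Apln than endothelial cells on each day, by 2.33 to 2.93 on the log2 scale. The difference in response between the cell types was -0.31 on day 2 with an adjusted p of 0.829, against 2.59 for Osm. Aplnr, the gene of the apelin receptor, rose in satellite cells by 3.37, 3.49 and 4.19 on days 2, 4 and 8. Without satellite day 2 replicate 2 the day 2 rise was 2.64 for Aplnr and 3.61 for Apln, both called. In satellite cells 9, 5 and 7 of the 14 endothelial markers also rose on days 2, 4 and 8. When that array was left out, 5 rose on day 2. The part of endothelial transcripts in the Apln and Aplnr values of satellite cells was not tested.

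Postn, a matrix protein gene, had another course. In satellite cells it stood at 8.44, 9.21 and 8.70 on day 0, 7.54, 8.51 and 7.61 on day 2, 9.60, 9.67 and 10.00 on day 4, and 9.96, 10.19 and 10.18 on day 8. In endothelial cells it stood at 4.02, 5.35 and 4.39 on day 0, 6.22, 4.40 and 4.79 on day 2, 7.52, 8.04 and 7.81 on day 4, and 7.60, 8.43 and 6.93 on day 8. In satellite cells Postn had its lowest mean on day 2, when Osm was highest, with arrays that overlapped those of day 0. Both cell types reached their upper levels on days 4 and 8.

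At day 4 relative to day 2, Postn rose in satellite cells by 1.87 (SE 0.43, limma adjusted p = 0.00454), while Osm fell by 2.51 in the same comparison. In endothelial cells Postn rose by 3.20 on day 4 (adjusted p = 5.8e-05) and by 3.07 on day 8 (adjusted p = 0.000269) relative to day 0. In satellite cells its differences from day 0 were 0.98 on day 4 (adjusted p = 0.129) and 1.33 on day 8 (adjusted p = 0.0566), neither called. Some fibro-adipogenic progenitor markers moved with Postn. In endothelial cells Col1a2 and Col3a1, both collagen genes, rose on day 4, and Col3a1, Col1a1 and Lum, which encodes lumican, rose on day 8. In satellite cells Col1a1, Col1a2 and Lum rose on days 4 and 8, while 4 of the 10 tested markers fell on each of these days. The mean over 12 such markers was 5.06 and 5.28 in endothelial cells on days 4 and 8, against 4.29 on day 0, and 6.25 and 6.67 in satellite cells, against 6.72. Their part in the Postn values was not tested. Satellite cells held more Postn than endothelial cells on each day, by 4.20, 2.75, 1.97 and 2.46 on days 0, 2, 4 and 8. Osm, Apln and Postn thus had their upper levels in different groups, the satellite cells of day 2, the endothelial cells of day 2 and the satellite cells of days 4 and 8.

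**Figure D5:**
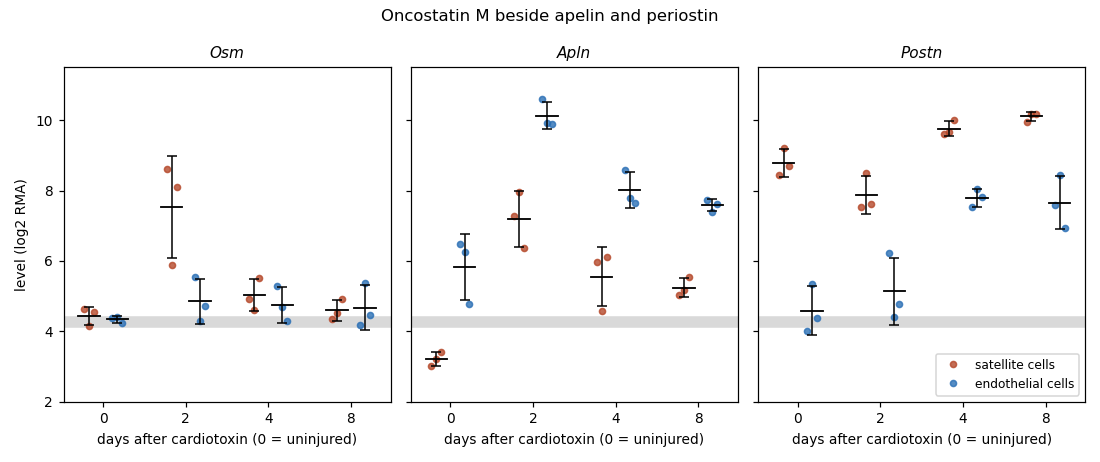
Level (log2 RMA) of Osm, Apln and Postn on every array by days after cardiotoxin, with satellite cells left of endothelial cells. Points are arrays, bars are the mean ± SD of 3 arrays, and the grey band is the range of the array medians. Osm is high in the satellite cells of day 2 (5.89 to 8.61), Apln is highest in the endothelial cells of day 2 (9.88 to 10.59), and Postn is highest in the satellite cells of day 8 (9.96 to 10.19).

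The genes whose 8 group means followed each member most closely were named from 2648 candidates with a span of at least 2. This is a description over 8 groups that share their arrays. For Osm and Il6ra, whose means were high mainly in the satellite cells of day 2, r rests largely on that group. For Osm they were Tlr9, Ikzf1 and Mmp8, each with a Pearson r of 0.995, and for Il6ra they were Samsn1 (0.995), Arhgap30 (0.995) and Sema4a (0.993). For Il6 they were Cep55 (0.927), Col18a1 (0.908) and Cenpe (0.888), a lower likeness than for the other tested members. For Stat3 they were Tgfb1 (0.960), Fam111a (0.935) and Ipmk (0.934), and for Socs3 Ogn (0.945), Tmem184c (0.936) and E030011O05Rik (0.935). For Osmr they were Gimap5 (0.984), Ppm1f (0.983) and Ica1 (0.982). Il6st was followed by Gpr182 (0.972), Amigo2 (0.964) and Clu (0.962), and Lifr by Tmem140 (0.959), Amigo2 (0.959) and Gm15441 (0.955). For Lif, which stayed at background, the 3 were Srsx (0.862), Mfap5 (0.859) and Trac (0.847).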

How the data were processed

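The labels' protocols describe RNA of sorted cells amplified from picogram amounts with a Nugen Ovation Pico kit, labelled with biotin and hybridised to single-colour mouse arrays. The deposited log2 values were made by the authors with RMA, per the submitters' processing notes, whose version is not given in the sources used here. The table holds 24479 probe sets, of which 23281 have 1 symbol in the array's annotation and 1198 have none. The number of arrays limits the precision.

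Groups came from the sample titles, since the cell type and time point fields match them in only 2 of 24 samples. Array numbers run in the order of the days, and the effects of array order and of day cannot be told apart. All 24 arrays were fitted in limma 3.58.1 (R 4.3.3) with 8 group means, 16 residual degrees of freedom and eBayes, in 17 comparisons. Two-sided p-values received Benjamini-Hochberg adjustment over 14064 genes. Genes were called at an adjusted p under 0.05 and a difference of at least 1, and folds need a lower mean at least 1 above the array medians. The fit was tested on simulated data with 200 changed genes.

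Members and lists were chosen with earlier results of these data known. All members are named, with Apln, Aplnr, Postn and Ptprc. From each list the text draws on at most 3 rises and 3 falls with the largest differences from day 0, and on the 3 genes most like each member by Pearson r. Same-numbered arrays of the cell types deviated together weakly (r over 0.1 in 4 of 12 pairs), so no pairing was used. Alternatives are described in the closing section.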

Additional observations from a re-analysis of the deposited data

Results flagged for a closer look

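Tests of the difference in response to injury, satellite minus endothelial cells, set several genes apart. Il6 had the smaller response in satellite cells on day 4, by -3.57 on the log2 scale. Osm had the larger response in satellite cells on day 2 (2.59), where its satellite arrays had the order of the leukocyte marker means. Stat3 had the larger response in satellite cells on day 2 (1.27) and day 4 (1.21). Socs3 differed the other way on day 2 (-1.20) and day 4 (-1.34), close to the threshold. Beside the members, the apelin receptor gene Aplnr differed on day 2 (2.83) and day 8 (2.81), and Postn on day 4 (-2.23). Of 35 alternatives, 1 lost the Aplnr call of day 2 (adjusted p = 0.0571), 11 that of day 8 (adjusted p up to 0.0893) and 10 the Postn call (adjusted p up to 0.105). No explanation of these differences was tested.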

How the results depend on the processing

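Each result was recomputed under 35 alternatives, 24 of which leave out 1 array, and no called difference of a member changed sign. The counts of members called held to within 1.5 times in all alternatives on 9 of 17 comparisons and moved on the other 8. For satellite cells at day 4 relative to day 0 the count of 1 became 2 with quantile normalization repeated or no minimum difference and 3 with array weights, and 1 to 2 leaving out arrays. At day 8 relative to day 0 the count of 1 became 2 with no minimum difference and 0 with only the compared groups, and 0 to 1 leaving out arrays. At day 4 relative to day 2 the count of 2 became 1 under the stricter filter and 0 with only the compared groups, and 1 to 3 leaving out arrays. The endothelial count of 1 at day 4 relative to day 2 became 0 with only the compared groups and 0 to 1 leaving out arrays, and the cell type count of 3 on day 2 became 1 with only the compared groups. For the difference in response on day 2 the count of 3 ranged over 1 to 4 leaving out arrays and fell to 1 without satellite day 2 replicate 1 or 3. On day 4 it was 3, became 1 with only the compared groups and ranged over 1 to 4 leaving out arrays. On day 8 it was 0 and became 1 (Stat3) under the stricter filter, median centring, the trend and robust prior or array weights, and 0 to 1 leaving out arrays.

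The replicate number in the titles as a fixed block gave 4 members called for the difference in response on day 2, where Il6ra was called at 2.19 with an adjusted p of 0.044, and changed no other member call. A random replicate block by day and preparation number (consensus correlation 0.0483) gave 4 there and 1 on day 8. The preparation numbers in the sample descriptions matched between the cell types in 11 pairs of arrays. Arrays with the same title number correlated at -0.065 to 0.198. Such a correlation cannot settle whether the cells of a pair came from the same preparation.

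Counts over all genes moved by more than 1.5 times in 10 comparisons. In satellite cells these were day 8 over day 0 (897, lowest 581), day 4 over day 2 (1483, lowest 635) and day 8 over day 4 (236, 56 to 412). In endothelial cells they were day 8 over day 0 (289, 162 to 459), day 4 over day 2 (52, 0 to 154) and day 8 over day 4 (17, 8 to 62). Between the cell types they were day 2 (1706, lowest 785) and the differences in response on days 2 (1614, highest 2443), 4 (596, highest 1047) and 8 (310, 183 to 512). With arrays centred on their medians, the median of all genes lay up to 0.17 from 0. Osm did not pass the stricter filter. Lif and the day 0 levels of Il6, Osm and Il6ra lie near background, which limits what their differences can show. The causes of these changes were not tested.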
